A study of Mus musculus with 12 samples.

Results

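The 10 genes described here form the core of the MHC class I antigen presentation pathway. They were taken by name from a list (H2-K1, H2-D1, H2-T23, B2m, Tap1, Tap2, Tapbp, Psmb8, Psmb9 and Nlrc5), and all 10 were found among the 49315 genes of the count tables. MHC class I molecules display short peptides from the inside of a cell on its surface, where cytotoxic T cells and natural killer (NK) cells read them. Peptides are cut by the proteasome, carried into the endoplasmic reticulum (ER) by the TAP transporter, and loaded there onto a heavy chain paired with beta-2-microglobulin. Fibroblasts express the pathway at a moderate level, interferons raise it, and senescent cells are cleared in part by the immune cells that read it.

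RNA-seq was performed on mouse adult fibroblasts (MAFs), primary cells from the ears of adult female mice, either C57BL6/J (wild type, WT) or BMAL1 -/- (KO), which lack the circadian transcription factor BMAL1. Control cells were sham irradiated, senescent cells received 20 Gy of X-rays and were then kept in culture, and both were given 100 nM dexamethasone to synchronize their clocks and collected 12 h later, so the dexamethasone exposure was shared by all groups. Each of the 4 groups, control and senescent cells of either genotype, had 3 libraries. The strain background of the KO mice is not given in the labels, and nothing in them says that replicates came from separate animals, so p-values measure the spread between these libraries, which may be technical.

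Total counts were 23923030 to 31736083 per library, and the members together took 0.0534% to 0.148% of the counts of a library. Levels are CPM, the counts of a gene relative to the total of its library, with totals scaled by TMM factors. A level of 3 counts, used as the floor of detection, equalled 0.101 to 0.135 CPM, and floors cover counting error only. Changes are log2 fold changes with standard errors (SE) from edgeR's quasi-likelihood (QL) test over all 12 libraries, and a gene passed the test where its Benjamini-Hochberg adjusted p over the 17416 genes tested was under 0.05. All 10 members were kept by the filter on low counts. The targeted gene, Arntl (also called Bmal1), was at 11.8 to 15.2 CPM in KO control, 25.3 to 27.5 CPM in KO senescent, and, in WT libraries, 29.8 to 33.2 CPM in control and 35.2 to 37.4 CPM in senescent cells, so that each KO library was below each WT library. Counts are for the whole gene, the deleted part is not given in the labels, and so the reads that remained in the KO could not be assigned to deleted or kept exons. The fibroblast marker Col1a1 averaged 5338 CPM over the 12 libraries, while Cd3g and Klrb1c, markers of T and NK cells, had no count in any library. Other immune cell markers had counts in every library. Ptprc, the highest of the macrophage and dendritic cell markers, was at 3.24 to 9.53 CPM. The B-cell genes Ms4a1 and Cd79a were at 2.06 to 7.91 CPM and 1.18 to 5.46 CPM. KO control replicate 1 and KO senescent replicate 3 stood apart from their group: chi-square per gene was 13 to 17.3 and 14.4 to 18.9 for pairs with them, against 3.74 and 8.06 for the remaining pair of each group.

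In the GRCm38 mouse genome, 8 of the members lie on chromosome 17, in or next to the MHC: Tapbp (33915899 to 33929292, plus strand), H2-K1 (33996017 to 34000347, minus), Psmb9 (34181987 to 34187764, minus), Tap1 (34187553 to 34197225, plus), Psmb8 (34197721 to 34201454, plus), Tap2 (34203527 to 34216321, plus), H2-D1 (35262730 to 35267499, plus) and H2-T23 (36029773 to 36032855, minus). B2m is on chromosome 2 (122147686 to 122153083, plus strand) and Nlrc5 on chromosome 8 (94434356 to 94527272, plus strand). Psmb9, Tap1, Psmb8 and Tap2 follow each other within 1 stretch, and the exons of Tap1 and Psmb9 share 212 bases on opposite strands.

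Promoter sequences were examined because class I genes are known to share an upstream module, in which NF-kB, interferon regulatory factors (IRFs) and the NLRC5 complex, built on RFX, CREB and NF-Y, bind side by side. RefSeq promoter windows of GRCm38.p6, 250 bases before to 50 bases after the start site, were matched for 8 of the 10 members, and Tap2 and Nlrc5 were not matched. Windows are shown 5′ to 3′ for the 3 heavy chains and B2m, which make up the surface molecule, for Tap1, whose window shares 275 bases with that of Psmb9, and for Tapbp, the member that moved in opposite directions in the 2 genotypes. Capitals mark matches, on either strand, to an IRF core (AANNGAAA), an NF-kB site (GGGNNTTCC), a CREB site (TGACG) and an NF-Y box (CCAAT), and no 2 matches overlapped. The RefSeq starts of H2-D1, H2-T23, Tapbp, Psmb8 and Psmb9 lie inside the genes as placed above, and except for H2-T23 the windows of these genes lie wholly inside them.
H2-K1 (chr17:34000298-34000597, minus strand): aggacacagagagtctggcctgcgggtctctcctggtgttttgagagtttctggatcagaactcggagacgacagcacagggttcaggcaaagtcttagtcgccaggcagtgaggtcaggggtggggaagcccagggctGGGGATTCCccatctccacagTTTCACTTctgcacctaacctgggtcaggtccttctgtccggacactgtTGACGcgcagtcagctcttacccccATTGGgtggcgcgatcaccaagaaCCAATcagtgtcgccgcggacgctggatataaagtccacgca
H2-D1 (chr17:35262844-35263143, plus strand): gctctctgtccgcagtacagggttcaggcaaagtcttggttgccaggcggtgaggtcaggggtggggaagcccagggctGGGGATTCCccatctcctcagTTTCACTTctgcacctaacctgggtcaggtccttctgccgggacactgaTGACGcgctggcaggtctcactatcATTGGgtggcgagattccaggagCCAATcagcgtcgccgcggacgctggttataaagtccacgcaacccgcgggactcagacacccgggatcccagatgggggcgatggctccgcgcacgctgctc
H2-T23 (chr17:36032652-36032951, minus strand): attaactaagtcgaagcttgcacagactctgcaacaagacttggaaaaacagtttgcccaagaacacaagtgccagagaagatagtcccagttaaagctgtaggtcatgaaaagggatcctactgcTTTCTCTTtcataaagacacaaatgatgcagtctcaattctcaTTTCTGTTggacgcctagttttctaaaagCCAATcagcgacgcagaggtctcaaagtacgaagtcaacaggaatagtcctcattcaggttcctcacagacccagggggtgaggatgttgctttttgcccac
B2m (chr2:122147437-122147736, plus strand): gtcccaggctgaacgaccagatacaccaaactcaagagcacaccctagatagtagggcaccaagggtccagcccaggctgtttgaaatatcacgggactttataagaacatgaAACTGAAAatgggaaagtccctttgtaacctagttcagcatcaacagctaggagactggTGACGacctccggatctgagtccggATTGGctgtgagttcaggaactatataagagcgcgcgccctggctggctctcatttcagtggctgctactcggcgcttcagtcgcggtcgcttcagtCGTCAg
Tap1 (chr17:34187306-34187605, plus strand): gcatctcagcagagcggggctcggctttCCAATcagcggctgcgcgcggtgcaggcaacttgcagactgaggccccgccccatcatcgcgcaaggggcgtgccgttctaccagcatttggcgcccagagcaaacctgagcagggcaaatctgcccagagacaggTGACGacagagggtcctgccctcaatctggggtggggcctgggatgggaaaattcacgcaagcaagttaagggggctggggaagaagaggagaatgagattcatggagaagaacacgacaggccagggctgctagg
Tapbp (chr17:33919228-33919527, plus strand): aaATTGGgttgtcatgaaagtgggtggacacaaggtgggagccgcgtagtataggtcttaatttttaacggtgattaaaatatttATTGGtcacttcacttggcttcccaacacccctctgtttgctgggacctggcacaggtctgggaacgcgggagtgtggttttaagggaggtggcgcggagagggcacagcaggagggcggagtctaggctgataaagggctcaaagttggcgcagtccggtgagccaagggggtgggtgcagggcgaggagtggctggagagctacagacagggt
Positions below count from the start site, where −1 is the base just before it. H2-K1 and H2-D1 held the same module in the same order. The distance from the first base of the NF-kB site to that of the IRF core was 21 bases in both, that from the IRF core to the CREB site was 49 bases in both, and that from there to the nearer NF-Y box was 25 bases in both. Counted from the RefSeq start used, the IRF core lay at −90 in H2-K1 and at −150 in H2-D1. This distance depends on where the start is placed. RefSeq lists 2 promoters for H2-K1, and the one nearest to the annotated 5′ end of the gene was used. The stretch tataaagtccacgca, found in both windows, lies after the start in H2-K1 and before it in H2-D1. H2-T23, a non-classical heavy chain, held 2 IRF cores (−124 and −81) and an NF-Y box (−52) but no match to the NF-kB or CREB letters. B2m, the light chain, held an IRF core (−137), a CREB site (−78) and an NF-Y box (−53).

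**Figure D1:**
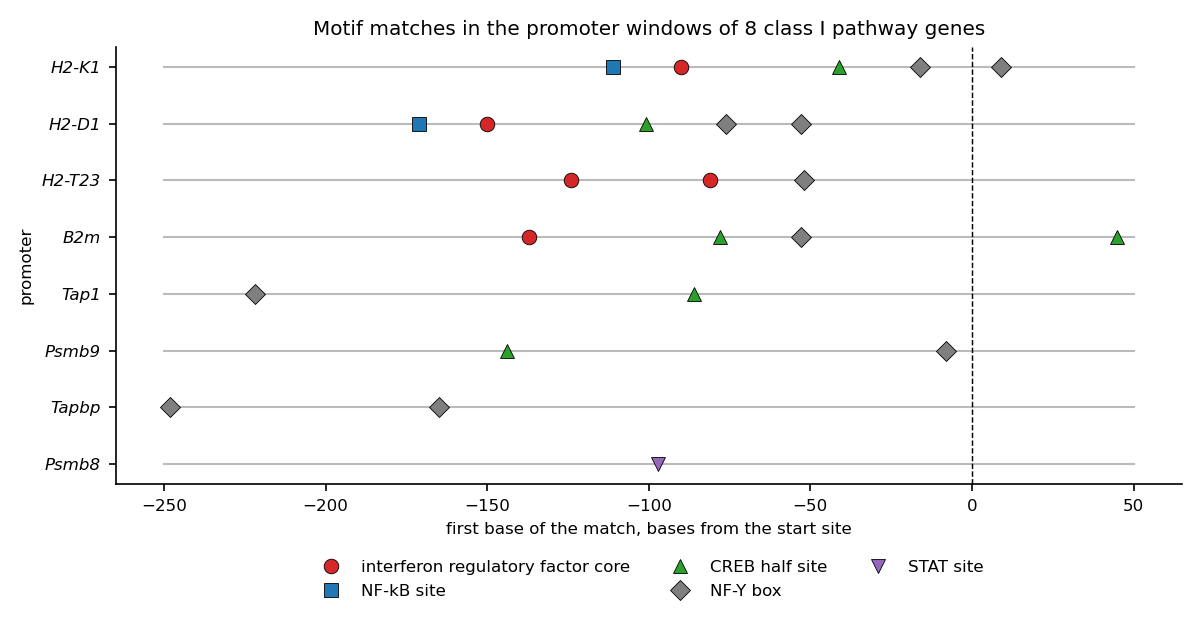
Positions of motif matches in the promoter windows of 8 members. The x axis gives the first base of each match in bases from the start site (dashed line), each row is 1 promoter, and symbols stand for motifs. From the NF-kB site to the first NF-Y box, the matches of H2-K1 and H2-D1 stand in the same order at the same spacing. The second NF-Y box, at 9 in H2-K1 and −53 in H2-D1, does not keep that spacing.

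Of the 8 windows, 4 held an IRF core (H2-K1, H2-D1, H2-T23 and B2m), against 23.9% of 32851 promoters of the same length, and 2 held an NF-kB site, against 5.82%. The CREB site was found in 5 windows (20.8% of all promoters) and the NF-Y box in 7 (37.4%). The windows of Tap1 and Psmb9 share 275 bases, and the CREB site and NF-Y box of the 2 genes are the same bases. Each of these matches was thus counted in both windows. The canonical E-box CACGTG, to which BMAL1 is known to bind, and the AP-1 letters TGANTCA were in none of the 8 windows, against 7.15% and 7.81% of all promoters. A STAT site (TTCNNNGAA, 8.3% of all promoters) was found in Psmb8 alone. These are matches of letters in short windows, and a missing match says only that the letters are not in that window.

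Levels of different genes were compared per kilobase of exon, with all annotated exons of a gene joined. A gene with annotated exons that are seldom used thus comes out too low, and which exons were used was not tested. B2m was the most abundant member in each group, at 238 ± 1.61 CPM per kb (SD, n = 3) in WT control and 649 ± 65.2 CPM per kb in WT senescent cells. H2-D1 (42.9 ± 0.611), H2-K1 (40.4 ± 1.6) and Tapbp (24.7 ± 1.59 CPM per kb) followed in WT control cells, and then H2-T23 (5.51 ± 0.434), Tap2 (4.5 ± 0.114), Tap1 (2.38 ± 0.115), Psmb8 (0.478 ± 0.0605), Psmb9 (0.241 ± 0.0354) and Nlrc5 (0.18 ± 0.0524 CPM per kb). Libraries of neighbours in this order did not overlap, except those of Psmb9 and Nlrc5. In WT senescent cells Tap2 (15.6 ± 0.636 CPM per kb) and H2-T23 (14.2 ± 2.18 CPM per kb) changed places and overlapped, and Nlrc5 (1.56 ± 0.0549 CPM per kb) stood above Psmb9 (0.607 ± 0.105 CPM per kb) without overlap. In KO control cells the order was that of WT control cells but for Nlrc5 (0.263 ± 0.07) and Psmb9 (0.214 ± 0.0827 CPM per kb), which overlapped there too. In KO senescent cells Tap2 (11.4 ± 1.21 CPM per kb) and H2-T23 (10.2 ± 0.596 CPM per kb) overlapped again, and Nlrc5 (1.37 ± 0.126 CPM per kb) was also above Psmb8 (1.1 ± 0.0604 CPM per kb).

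To see how the pathway responds to senescence in the presence of BMAL1, WT senescent were compared with WT control cells. All 10 members rose. Libraries of the 2 groups did not overlap for any member, all 10 being higher in senescent cells, where 33.4% of all genes tested showed this. By the test, 29.2% of all genes were higher and 27.0% were lower. The median log2 fold change of the members was 1.41, beside 0.03 over all genes tested, and 8 of the 10 had a log2 fold change over 1 (11.6% of all genes did in this direction), the exceptions being H2-K1 and Tapbp. The same comparison in KO cells gave 9 members that rose and 1, Tapbp, that fell, against 28.5% of all genes higher and 28.6% lower. The median of the members was 1.01, beside −0.003 over all genes. In the KO, 6 members had a log2 fold change over 1 (11.2% of all genes), and libraries did not overlap for any member, with 9 above (30.8% of all genes) and Tapbp below.

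The genotypes were then compared in their response. The interaction, which is the KO log2 fold change less the WT one, was below 0 in each of the 10 members and passed the test in 7, against 11.7% of all genes that passed in this direction. Its median was −0.58 over the members and −0.03 over all genes. A median below 0 was not particular to the members. Among lists described below, it was −0.82 for interferon-induced genes outside the pathway, where 3 of 21 passed in this direction. For MHC class II genes it was −0.78 (1 of 11 passed) and for further heavy chains −0.555 (4 of 11). It was −0.009 for peptide loading and trimming genes and 0.184 for constitutive proteasome subunits. For H2-T23 and Psmb8 the interaction was also over 1 in size, as in 2.51% of all genes. In senescent cells, 8 members were lower in KO than in WT by the test, against 11.8% of all genes, and for 9 the libraries did not overlap, against 21.0%. In control cells, 3 members were higher in KO (H2-T23, B2m and Tapbp), against 8.07% of all genes, and none was lower by the QL test. At an unadjusted p under 0.05, 1 member, H2-K1, was lower in KO control cells (p 0.045), and DESeq2 and limma-voom called none lower. The 5 comparisons share libraries, so their counts are not independent of each other. Counts for WT and KO come from separate tables, so genotype and any difference in handling between the tables cannot be told apart. The interaction cancels only a difference that is the same in control and senescent cells. A difference in how WT and KO cells were irradiated or cultured would remain in it. Fewer cells expressing a gene and less RNA per cell cannot be told apart in bulk RNA.

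**Figure D2:**
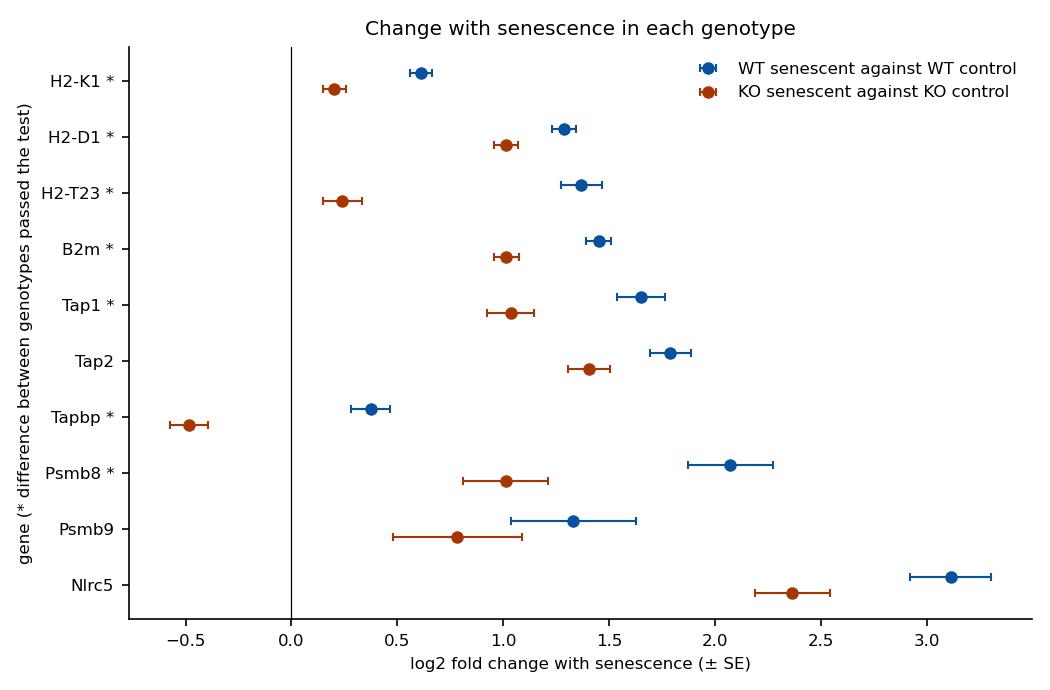
Log2 fold change of each member with senescence in WT (blue) and KO (brown) cells, on the x axis, with bars for the SE. Each of the 10 WT points lies to the right of its KO point, Tapbp alone has a KO point below 0, and asterisks mark the 7 members whose difference between genotypes passed the test.

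The heavy chains bind the peptide and are what a T cell receptor contacts. H2-K1, a classical heavy chain (ENSMUSG00000061232), measured 113, 122 and 121 CPM in replicates 1 to 3 of WT control, 187, 185 and 172 CPM in WT senescent, 104, 112 and 113 CPM in KO control and 128, 126 and 125 CPM in KO senescent libraries. Senescent libraries were above control libraries in both genotypes, and the KO senescent libraries stood just above the WT control ones. H2-K1 rose by 0.61 on the log2 scale in the WT (SE 0.05, QL adjusted p 2.67e-09) and in the KO by 0.20 (SE 0.05, QL adjusted p 0.00262). The interaction was −0.41 (SE 0.07, QL adjusted p 0.000595).

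H2-D1, the other classical heavy chain (ENSMUSG00000073411), rose further than H2-K1 in both genotypes. It measured 112, 109 and 111 CPM in control WT cells, 281, 285 and 244 CPM in WT senescent, 105, 103 and 104 CPM in KO control and 206, 205 and 219 CPM in KO senescent libraries. Senescent libraries lay above control libraries, and those of the KO below those of the WT, with no overlap. The log2 fold change was 1.29 in WT (SE 0.06, QL adjusted p 7.03e-14) and 1.01 in the KO (SE 0.06, QL adjusted p 2.67e-12). The interaction of −0.27 (SE 0.08, QL adjusted p 0.0185) was the smallest in size of the 7 that passed, and it missed the threshold without WT senescent replicate 1 (QL adjusted p 0.0556) or 2 (0.0691).

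H2-T23 (ENSMUSG00000067212) encodes Qa-1, the mouse relative of HLA-E, which presents signal peptides of classical heavy chains to inhibitory receptors of NK cells. It measured 14.9, 17.3 and 15.5 CPM in control WT cells, 39.5, 47.9 and 35.7 CPM in WT senescent, 26.2, 24.5 and 24.1 CPM in KO control and 27.5, 29.9 and 30.8 CPM in KO senescent libraries. All KO libraries, control and senescent, lay between the 2 WT groups. Its level was 1.57-fold higher in KO than in WT control cells (log2 0.65, SE 0.10, QL adjusted p 1e-04) and 0.717 times that of WT in senescent cells (log2 −0.48, SE 0.09, QL adjusted p 0.000476). With senescence it rose in the WT by 1.37 (SE 0.10, QL adjusted p 1.12e-10) and in the KO by 0.24 (SE 0.09, QL adjusted p 0.0323). The KO rise missed the threshold when replicate 2 or 3 of KO control or of KO senescent was left out (QL adjusted p 0.0847 to 0.108). The interaction was −1.13 (SE 0.13, QL adjusted p 1.3e-05), the largest in size of the members.

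The sequences of classical and non-classical heavy chains are similar, and the authors counted uniquely mapped reads alone. Of all stretches of 100 bases in the transcripts of H2-K1, H2-D1 and H2-T23, 0.96%, 3.59% and 3.15% were also found in another gene of the reference. The reference is of the C57BL/6J haplotype, and reads of another haplotype could be lost. Whether the KO cells carry another haplotype was not tested, and H2-K1 and H2-D1 differed between KO and WT control cells by log2 −0.11 (SE 0.05) and −0.09 (SE 0.06), which did not pass (QL adjusted p 0.178 and 0.348). For both genes each KO control library nevertheless lay below each WT control library, though barely for H2-K1.

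B2m (ENSMUSG00000060802), the light chain that every heavy chain needs to fold and reach the surface, measured 204, 203 and 206 CPM in control WT cells, 577, 603 and 495 CPM in WT senescent, 239.7, 245 and 233 CPM in KO control and 468, 496 and 486 CPM in KO senescent libraries. KO control libraries lay above WT control libraries, while in senescent cells 1 KO library reached above the lowest WT library. B2m rose in the WT by 1.45 (SE 0.06, QL adjusted p 2.46e-14) and in the KO by 1.01 (SE 0.06, QL adjusted p 5.41e-12), with an interaction of −0.44 (SE 0.08, QL adjusted p 0.000947). In senescent cells KO was lower than WT by log2 −0.21 (SE 0.06, QL adjusted p 0.0124), a call that was lost when WT senescent replicate 1 or 2, or replicate 1 of KO senescent, was left out (QL adjusted p 0.0531 to 0.118).

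Tap1 and Tap2 are the 2 chains of the transporter that carries peptides into the ER. Tap1 (ENSMUSG00000037321) measured 13.8, 12.6 and 12.8 CPM in control WT cells, 37.2, 48 and 37.5 CPM in WT senescent, 13.7, 14.7 and 15 CPM in KO control and 25.4, 29.3 and 34.2 CPM in KO senescent libraries. Control groups overlapped, and KO senescent libraries lay between control and WT senescent libraries. Tap1 rose in the WT by 1.65 (SE 0.11, QL adjusted p 3.83e-10) and in the KO by 1.04 (SE 0.11, QL adjusted p 2.13e-07), with an interaction of −0.61 (SE 0.16, QL adjusted p 0.00971).

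Tap2 (ENSMUSG00000024339) measured 16.7, 16.8 and 17.5 CPM in control WT cells, 56, 60.3 and 60.1 CPM in WT senescent, 14.4, 19.4 and 14.9 CPM in KO control and 37.9, 45.6 and 46 CPM in KO senescent libraries. As for Tap1, KO senescent libraries were above both control groups and below the WT senescent libraries. The rise was 1.79 in WT (SE 0.10, QL adjusted p 7.01e-12) and 1.40 in the KO (SE 0.10, QL adjusted p 2.41e-10). The interaction of −0.38 (SE 0.14) did not pass (QL adjusted p 0.0534) but did under 7 of 18 alternatives, whose adjusted p ranged from 0.00582 to 0.224, while the level in senescent cells was lower in KO by log2 −0.45 (SE 0.09, QL adjusted p 0.00109).

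Tapbp (ENSMUSG00000024308) encodes tapasin, which tethers empty class I molecules to the transporter and helps to select well-fitting peptides. It measured 84.6, 95.9 and 88.4 CPM in control WT cells, 113, 126 and 109 CPM in WT senescent, 94.8, 121 and 115 CPM in KO control and 70.7, 82.5 and 83.4 CPM in KO senescent libraries. Senescent libraries were all above control libraries in WT cells and all below them in KO cells. Tapbp rose in the WT by 0.37 (SE 0.09, QL adjusted p 0.00243) and in the KO fell by 0.48 (SE 0.09, QL adjusted p 0.000288), with an interaction of −0.86 (SE 0.13, QL adjusted p 0.000335). Of all genes tested, 163 (0.936%) passed in these opposite directions. By the annotation, the exons of Tapbp share 904 bases with Gm19412 on the opposite strand and 149 bases with Zbtb22. Gm19412 was at 0.201 to 0.707 CPM, far below Tapbp, and Zbtb22 was at 18.9 to 26.3 CPM and changed by log2 0.08 in WT (QL adjusted p 0.424) and −0.26 in KO cells (QL adjusted p 0.00801). Psmb8 and Tap2 share exonic bases with Gm20496, at 0.0407 CPM or less, and Tap2 also with Gm15821, at 0.64 CPM or less.

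**Figure D3:**
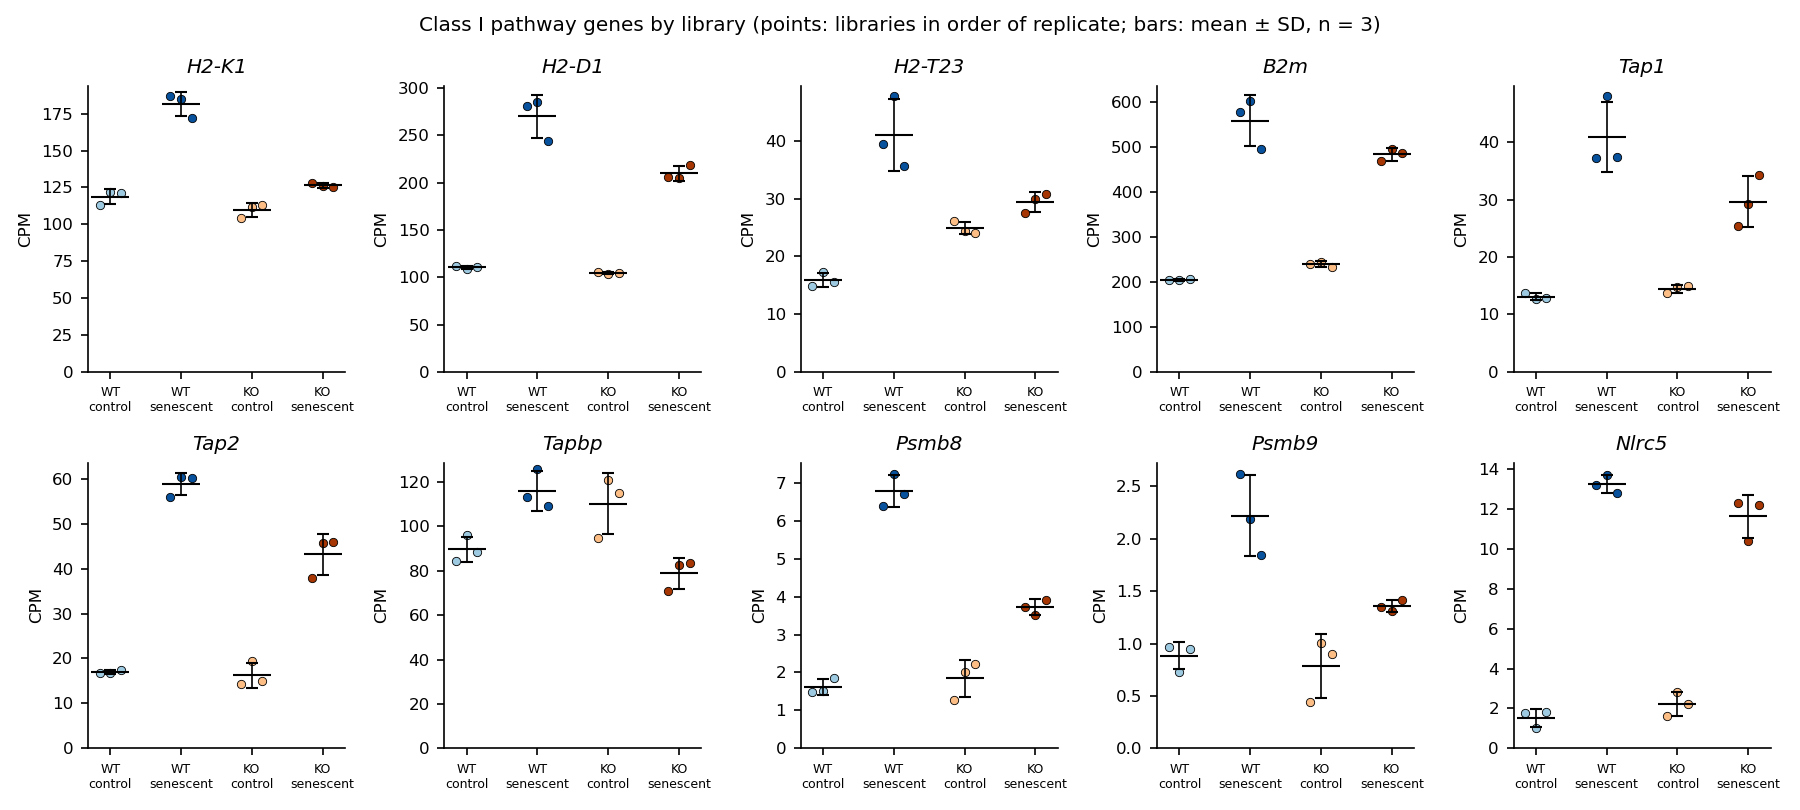
CPM (y axis, from 0) of the 10 members in each of the 12 libraries, with 1 panel per gene, points for libraries and bars for the group mean ± SD (n = 3). WT senescent libraries lie above those of every other group for 8 members, the exceptions being B2m and Tapbp, and for Tapbp the KO senescent libraries lie below both control groups.

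Psmb8 and Psmb9 are catalytic subunits of the immunoproteasome, which replace constitutive subunits and change the ends of the peptides cut. Psmb8 (ENSMUSG00000024338) measured 1.49, 1.51 and 1.85 CPM in control WT cells, 6.4, 7.24 and 6.71 CPM in WT senescent, 1.28, 2.02 and 2.23 CPM in KO control and 3.74, 3.51 and 3.92 CPM in KO senescent libraries. The KO senescent libraries stood midway, with no overlap with either neighbour. Psmb8 rose in the WT by 2.07 (SE 0.20, QL adjusted p 1.6e-08) and in the KO by 1.01 (SE 0.20, QL adjusted p 0.000192), with an interaction of −1.06 (SE 0.29, QL adjusted p 0.0112).

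Psmb9 (ENSMUSG00000096727) had the fewest reads of the members, 11 to 77 counts per library. It measured 0.965, 0.733 and 0.948 CPM in control WT cells, 2.62, 2.19 and 1.85 CPM in WT senescent, 0.44, 1.01 and 0.902 CPM in KO control and 1.35, 1.31 and 1.42 CPM in KO senescent libraries. Senescent libraries were above control libraries in both genotypes, and KO senescent libraries were below WT senescent libraries. It rose in the WT by 1.33 (SE 0.29, QL adjusted p 0.000604) and in the KO by 0.78 (SE 0.31, QL adjusted p 0.034). The KO rise was 0.50 (QL adjusted p 0.185) without KO control replicate 1, the lowest library, and it also missed the threshold without KO senescent replicate 1, 2 or 3 (QL adjusted p 0.0575 to 0.0775). The interaction was −0.55 (SE 0.43, QL adjusted p 0.402), an SE at which a difference of the size seen in Tap1 was not detectable.

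The replacement of constitutive by immunoproteasome subunits can be followed as a ratio within each library, which does not depend on how libraries are scaled. The size of a percentage does depend on the joined exon lengths, while its fold between groups does not. These lengths were 3381 bases for Psmb8 and 899 for Psmb5, and 3660 for Psmb9 and 1872 for Psmb6. Per kb of exon, the Psmb8 level was 0.482%, 0.536% and 0.598% of that of Psmb5, the subunit it replaces, in WT control and 2.37%, 2.83% and 2.56% in WT senescent libraries. In KO cells it was 0.394%, 0.715% and 0.819% in control and 1.42%, 1.19% and 1.24% in senescent libraries. Ratios of senescent libraries were above those of control libraries in both genotypes, and those of KO senescent libraries were below those of WT senescent libraries (exact permutation test, two-sided, p 0.1 for each, the smallest that 3 against 3 libraries can give). Psmb9 to Psmb6 followed the same order, at 0.517% ± 0.0929 (SD, n = 3) in WT control, 1.49% ± 0.212 in WT senescent, 0.486% ± 0.207 in KO control and 0.921% ± 0.0396 in KO senescent cells. Psmb10 to Psmb7, the third pair, stood higher, at 16.6% ± 1.43, 24.9% ± 2.13, 16.8% ± 0.214 and 21.2% ± 2.42 in the same order of groups, and the 2 senescent groups overlapped (exact permutation test, two-sided, p 0.2).

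The ratio of B2m to the sum of H2-K1 and H2-D1, also per kb, was 2.85 ± 0.0392 (SD, n = 3) in WT control, 3.9 ± 0.138 in WT senescent, 3.58 ± 0.126 in KO control and 4.52 ± 0.169 in KO senescent cells. The light chain thus gained on the classical heavy chains with senescence in both genotypes, and the ratio was higher in KO than in WT cells in both states. Libraries did not overlap in any of these 4 comparisons (exact permutation test, two-sided, p 0.1 for each, the smallest possible).

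**Figure D4:**
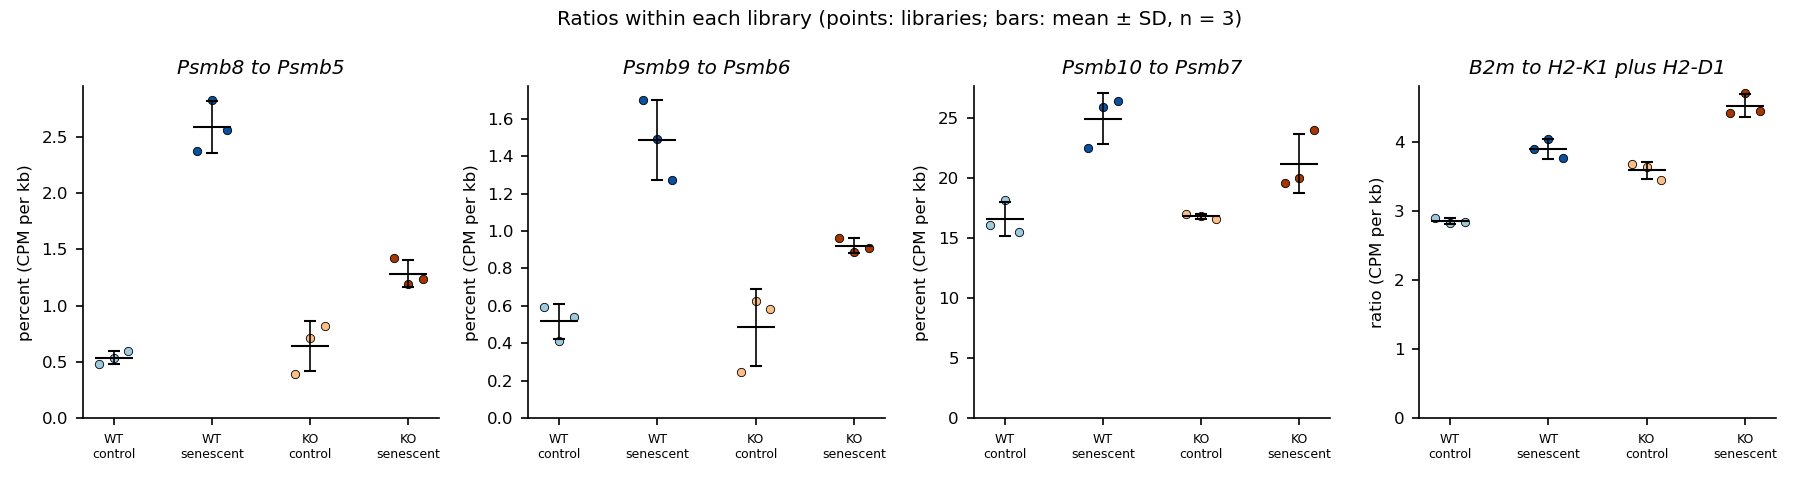
Ratios of CPM per kb within each library (y axes, from 0), as percent for the 3 proteasome pairs and as a ratio for B2m to H2-K1 plus H2-D1, with points for libraries and bars for the group mean ± SD (n = 3). Psmb8 to Psmb5 separates WT senescent (2.37% to 2.83%) from KO senescent libraries (1.19% to 1.42%).

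Nlrc5 (ENSMUSG00000074151) encodes the class I transactivator, the partner of RFX, CREB and NF-Y factors at class I promoters. It measured 1.77, 1.02 and 1.81 CPM in control WT cells, 13.2, 13.7 and 12.8 CPM in WT senescent, 1.64, 2.83 and 2.23 CPM in KO control and 12.3, 10.4 and 12.2 CPM in KO senescent libraries. Control groups overlapped, and KO senescent libraries lay just below the WT senescent ones. No other member rose as much. The fold was 8.65 in WT (log2 3.11, SE 0.19, QL adjusted p 1.11e-11) and 5.15 in KO cells (log2 2.36, SE 0.18, QL adjusted p 2.92e-10). The interaction of −0.75 (SE 0.27) did not pass (QL adjusted p 0.0511) but did under 5 of 18 alternatives, among them DESeq2 (adjusted p 0.0392) and leaving out KO control replicate 1 (QL adjusted p 0.00931), and the adjusted p ranged up to 0.218. In senescent cells KO differed from WT by log2 −0.19 (SE 0.15, QL adjusted p 0.409). The exons of Nlrc5 share 78 bases with 9330175E14Rik, which was at 0.0903 to 1.62 CPM and itself rose, by log2 1.98 in WT (QL adjusted p 0.0013) and 2.45 in KO cells (QL adjusted p 0.000318).

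The other genes of the pathway did not move as a block. Of 16 further heavy chain genes, 11 were tested. In WT cells 8 rose and none fell by the QL test (29.2% and 27.0% of all genes). In KO cells 4 rose and 2 fell (28.5% and 28.6% of all genes). H2-Q4, a Qa-region heavy chain, went from 6.77 to 8.06 CPM in WT control to 22.4 to 27.8 CPM in WT senescent libraries (log2 1.74, SE 0.11, QL adjusted p 1.2e-11) and from 8.56 to 9.83 CPM to 14.3 to 16.5 CPM in KO cells (0.75, SE 0.10, QL adjusted p 3.4e-06). H2-T10, at 0.572 to 2.65 CPM, rose in the WT by 1.52 (SE 0.30, QL adjusted p 0.000223). Its change in the KO was 0.75 (SE 0.31, QL adjusted p 0.0463), a call lost with DESeq2 (adjusted p 0.0718), with the replicate block (QL adjusted p 0.0566) and when any 1 library of the KO was left out except KO control replicate 3 (0.0588 to 0.192). Cd1d1, which presents lipids to NKT cells, fell by 1.19 in the KO (SE 0.18, QL adjusted p 7.9e-06) and changed by 0.34 in the WT (SE 0.18, QL adjusted p 0.118). The second gene that fell in KO cells was H2-Q7 (−0.54, against 0.49 in the WT), which is named after its values were seen. Its fall was lost with library totals alone (QL adjusted p 0.0677) and without replicate 1 of KO control (0.0571) or of KO senescent (0.0626), and its rise in the WT without replicate 1 of the control (0.118) or replicate 1 (0.0902) or 2 (0.0675) of the senescent cells.

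Genes of peptide loading and trimming in the ER, among them chaperones, glycan enzymes and aminopeptidases, fell more often than they rose. Of 10 such genes, 7 fell in each genotype, against 27.0% of all genes in WT and 28.6% in KO cells, and 1 rose. The KO riser, Prkcsh, is named after its values were seen (0.15, QL adjusted p 0.0143) and was lost with no filter on low counts and when replicate 2 or 3 of KO control, or replicate 3 of KO senescent, was left out. The median log2 fold change was −0.33 in WT and −0.23 in KO cells. Calr, the lectin chaperone calreticulin of the loading complex, measured 2387 to 2501 CPM in WT control, 1074 to 1099 CPM in WT senescent, 2312 to 2362 CPM in KO control and 999.7 to 1026 CPM in KO senescent libraries. It fell by 1.17 in WT and in the KO by 1.20 (SE 0.04 each), so that Calr, in the same complex as tapasin, fell where Tap1 and Tap2 rose. Pdia3, the oxidoreductase ERp57 of that complex, fell by 0.95 in WT and 0.96 in the KO (SE 0.05 each), and Hspa5, the general ER chaperone BiP, by 1.15 and 0.74 (SE 0.05 each). Erap1, the aminopeptidase that trims peptides in the ER, is named after its values were seen: it was the gene that rose in WT cells (0.45), while it fell in KO cells (−0.20), a call that was lost with DESeq2 (adjusted p 0.0728), with library totals alone (QL adjusted p 0.597) and when replicate 2 or 3 of KO control, or replicate 3 of KO senescent, was left out (0.0744 to 0.144).

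Constitutive proteasome subunits changed little. Psmb5, Psmb6 and Psmb7 fell by 0.19 (SE 0.07), 0.20 (SE 0.06) and 0.34 (SE 0.05) in WT cells, of which 1 remained past the threshold when libraries were scaled by their totals alone. The fall of Psmb5 was also lost when replicate 1 or 3 of WT control, or replicate 2 or 3 of WT senescent, was left out (QL adjusted p 0.0631 to 0.0873). In KO cells they changed by −0.01, −0.15 and −0.06, of which that of Psmb6 passed (QL adjusted p 0.0338) but did not with DESeq2 (adjusted p 0.103), with the replicate block (QL adjusted p 0.0684) or when replicate 1 of KO control (0.174) or replicate 1 or 2 of KO senescent (0.176 and 0.0651) was left out. All 3 changes in the KO were above 0 with library totals alone. Psmb10, the third immunoproteasome subunit, changed by 0.25 in WT (SE 0.12, QL adjusted p 0.0767) and 0.27 in the KO (SE 0.12, QL adjusted p 0.0515). The activator subunits Psme1 and Psme2 rose in the WT by 0.65 and 0.57 (SE 0.07 each). In the KO Psme1 rose by 0.20 (SE 0.07, QL adjusted p 0.0154) and Psme2 by 0.21 (SE 0.06, QL adjusted p 0.00858), calls that were lost without KO control replicate 2 (0.0687 and 0.0564), and that of Psme1 also with no filter on low counts (0.0855). Psme2b rose in the 2 genotypes by 1.09 and 1.24 (SE 0.15 each).

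Among 21 transcription factors that act on class I promoters, 8 rose and 7 fell in WT, and 6 rose and 11 fell in KO cells. Of all genes, 29.2% rose and 27.0% fell in WT, and 28.5% rose and 28.6% fell in KO cells. Irf7, an interferon-inducible IRF, rose in the WT by 3.02 (SE 0.36, QL adjusted p 2.84e-05) and 1.82 in the KO (SE 0.34, QL adjusted p 0.000903). Irf9, a DNA-binding factor of the type I interferon response, rose by 1.39 (SE 0.10) and 0.72 (SE 0.10), with an interaction of −0.67 (SE 0.15, QL adjusted p 0.00423). Stat2 rose in the WT by 0.96 (SE 0.23, QL adjusted p 0.00606) and changed by 0.35 in the KO (SE 0.22, QL adjusted p 0.215).

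No interferon ligand was detected at a level that could be tested. Of 10 ligand genes, 3 had no count in any library (Ifng, Ifna1 and Ifnl2, named after their values were seen), and the others had 1 to 9 counts over all 12 libraries together. Of 10 receptors and proximal signalling genes, 5 rose and 2 fell in WT (29.2% and 27.0% of all genes). In KO cells 5 of them rose and 4 fell (28.5% and 28.6% of all genes). Usp18, an interferon-induced brake on the type I receptor, was at 0.768 to 1.43 CPM in WT control, 10.6 to 17.2 CPM in WT senescent, 0.773 to 2.44 CPM in KO control and 5.4, 6.03 and 24.8 CPM in KO senescent libraries. Ifngr1, a chain of the interferon-gamma receptor, rose by 0.48 in WT and 0.64 in the KO (SE 0.06 each), and Socs3, a feedback inhibitor of cytokine receptors, fell by 1.04 and 1.46 (SE 0.07 each).

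The members were next set beside interferon-induced genes outside the pathway. Of 22 such genes 21 were tested, of which 21 rose in WT and 18 in KO cells (29.2% and 28.5% of all genes), with medians of 3.25 and 2.15. Ifit1, an RNA-binding antiviral protein, measured 0.733 to 0.965 CPM in control WT cells, 16, 39.2 and 16.7 CPM in WT senescent, 0.707 to 1.4 CPM in KO control and 7.45, 8.16 and 34.8 CPM in KO senescent libraries. Iigp1, an immunity-related GTPase, measured 12.7, 22 and 12.1 CPM in WT senescent and 5.33, 5.43 and 16.4 CPM in KO senescent libraries, against 0.204 to 1.41 CPM in all control libraries. Rsad2, the antiviral enzyme viperin, was at or below the floor of 3 counts in all WT control libraries and at 1.56, 7.54 and 2.74 CPM in WT senescent and 0.81, 1.17 and 1.15 CPM in KO senescent libraries. Between the highest and the lowest replicate of a senescent group, these 3 genes differed by 1.81-fold to 4.82-fold in WT and by 1.44-fold to 4.67-fold in KO cells.

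The members spread less by the median, though the ranges of the 2 lists overlapped. Between the highest and the lowest library of a senescent group, members differed by a median of 1.16-fold in WT (range 1.07 to 1.41) and 1.12-fold in KO cells (1.02 to 1.35), close to the median of all genes tested (1.14-fold and 1.19-fold). The interferon-induced genes differed by a median of 1.69-fold (1.19 to 4.82) and 2.12-fold (1.16 to 5.59). They also rose further, with a median log2 fold change in WT of 3.25 against 1.41 for the members. Whether the spread follows the size of the rise or the level of a gene was not tested. The library with most of the high values was the same for both lists. WT senescent replicate 2 was the highest of its group for 21 of 21 interferon-induced genes and 8 of 10 members, and KO senescent replicate 3 for 19 of 21 and 7 of 10. The share of all genes that were highest in these libraries was not computed, so these counts have no background to be read against. Without KO senescent replicate 3, the interaction passed in 8 members and 7 rose in the KO; without WT senescent replicate 2 it passed in 6, and without KO control replicate 1, the other library that stood apart, in 9.

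**Figure D5:**
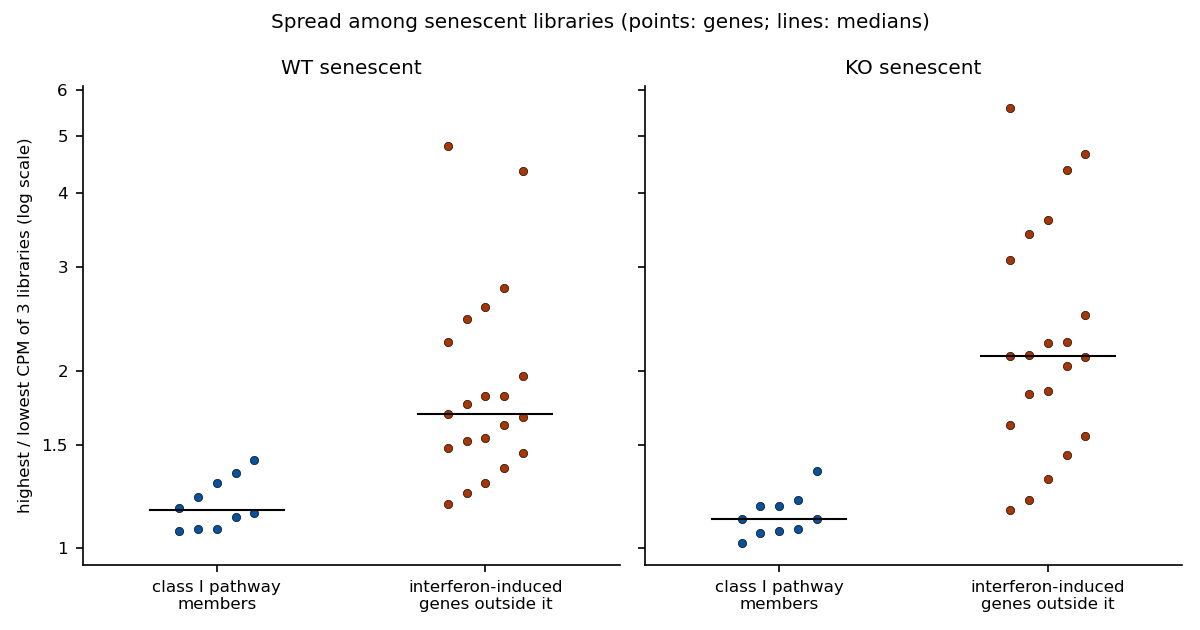
Highest CPM divided by lowest CPM among the 3 libraries of a senescent group (y axis, log scale), for the 10 members and 21 interferon-induced genes, with points for genes and lines for medians. Members lie between 1.02 and 1.41, and interferon-induced genes reach 4.82 in WT and 5.59 in KO cells.

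Over all 12 libraries, the genes whose profile was nearest to the median profile of the 10 members were 9230114K14Rik, Vsir, Cdnf, Tmem86a and Pdlim2. The root mean square difference of centred log2 CPM was 0.10 for the first and 0.13 for the fifth, among 13870 genes outside the members with a mean of at least 1 CPM. Vsir encodes VISTA, a checkpoint ligand of T cells, and Pdlim2 a ligase for nuclear NF-kB. The median profile of the members was below 0 in control libraries (−0.69 to −0.44) and above 0 in senescent libraries, at 0.58 to 0.85 in WT and 0.25 to 0.40 in KO cells.

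Markers of other cell types were summed in each library. Chondrocyte markers were at 6896 to 8531 CPM in WT control, 1763 to 2044 CPM in WT senescent, 4505 to 6145 CPM in KO control and 553 to 636 CPM in KO senescent libraries, and all 5 of them fell with senescence in both genotypes and were lower in senescent KO than in senescent WT cells. Macrophage and dendritic cell markers summed to 12.5 to 18.9 CPM in WT control and 19.3 to 22.1 CPM in WT senescent libraries, without overlap. In KO cells the sum was 12.3 to 17.2 CPM in control and 15.9 to 22.3 CPM in senescent libraries, which overlapped. This list held 13 genes, of which 8 had a mean under 1 CPM. Of 7 tested, 4 rose and 0 fell in each genotype by the QL test. Of all genes, 29.2% rose and 27.0% fell in WT, and 28.5% rose and 28.6% fell in KO cells. Fibroblast markers summed to 20019.8 to 20829.8 CPM in WT control, 9844 to 10252 CPM in WT senescent, 24978 to 26343 CPM in KO control and 11733 to 12151 CPM in KO senescent libraries. The fall of the fibroblast sum with senescence did not hold for each gene of that list. Of its 9 genes, 5 rose and 4 fell in WT by the QL test, while 3 rose and 5 fell in the KO. Col1a1, the highest of the list, fell in the WT from a mean of 7323 to 1750.3 CPM. Keratinocyte and endothelial markers stayed at or under 19 CPM in sum. The keratinocyte sum was 9.84 to 14.3 CPM in WT control and 17.9 to 19 CPM in WT senescent libraries. In KO cells it was 11.2 to 12.1 CPM in control and 11.8 to 12.7 CPM in senescent libraries. The chondrocyte and fibroblast sums thus moved with senescence and genotype, and the macrophage and keratinocyte sums rose with senescence in WT cells. The part of other cell types in the members' values was not tested.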

How the data were processed

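Gene expression was measured by RNA-seq in 12 libraries of MAFs, 3 in each of 4 groups, which were assigned from the sample titles. The deposited values are raw counts per gene, which the authors made by trimming paired reads with Trimmomatic 0.36, mapping them to GRCm38 with STAR 2.5.2b and counting uniquely mapped reads over exons with featureCounts. The use of strand is not stated, so reads of overlapping genes cannot be told apart. The 2 tables, 1 per genotype, were joined by gene ID. Total counts were 23923030 to 31736083 per library, and genes varied within groups by a median coefficient of 6.77% to 9.22%.

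The main test used edgeR 4.0.16 in R 4.3.3: filterByExpr over the groups (17416 genes kept), TMM scaling (trimmed mean of M-values), robust dispersions and a robust QL fit with 1 mean per group, and 5 contrasts adjusted by Benjamini-Hochberg. The SE was the absolute log2 fold change divided by the square root of F. Alternatives were DESeq2 1.42.0, limma-voom (limma 3.58.1), other scalings, no filter, the libraries of each pair alone, a replicate block, leaving out each library, and a log2 fold change over 1 as part of the call. The fits were tested on simulated counts. Gene places and exon lengths came from a GENCODE annotation of GRCm38, and promoters from RefSeq.

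Members and gene lists were chosen with earlier results of these data known. All members were named, and from each list the 3 genes with the largest change among those that passed in either senescence comparison whose mean was 1 CPM or more, the subunits of the ratios and the 5 genes nearest to the members' profile. Genes named beyond this were chosen after their values were seen. A marker gene was named where it was the highest of its list or had no count. The sum of lymphocyte markers is not reported here.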

Additional observations from a re-analysis of the deposited data

Results flagged for a closer look

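The changes with senescence differed between genotypes by the interaction term (KO log2 fold change less that of WT) for 20 of the named genes. Groups of 3 libraries are too small for the outlier test used elsewhere, which was not run. Among the members the interaction was −0.41 for H2-K1, −0.27 for H2-D1, −1.13 for H2-T23, −0.44 for B2m, −0.61 for Tap1, −0.86 for Tapbp and −1.06 for Psmb8. Each was below 0, and for Tapbp the direction of the change itself was opposite in the 2 genotypes.

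Among other genes of the pathway, it was −0.99 for the heavy chain H2-Q4, −1.53 for Cd1d1, 0.41 for the chaperone Hspa5, 0.28 for the constitutive subunit Psmb7, −0.45 for Psme1 and −0.36 for Psme2. It was −0.655 for Erap1 and −1.03 for H2-Q7, which were named after their values were seen and, like Tapbp, rose in WT and fell in KO cells. Among regulators and interferon-induced genes it was −0.67 for Irf9, −0.41 for Socs3 and −3.65 for Rsad2, the last from counts at or below the floor in WT control cells, so that its size depends on the prior count of the fit. The call for Rsad2 was lost with limma-voom (adjusted p 0.139) and without any 1 of the control or KO senescent libraries (QL adjusted p 0.0537 to 0.129). It was −0.76 for H2-DMb1, a chaperone of MHC class II loading, and −0.55 for Ulbp1, a stress ligand read by NK cells. Both were at an adjusted p of 0.0501 with limma-voom. The call for H2-DMb1 was also lost when replicate 1 or 3 of WT control, 2 of WT senescent, 2 or 3 of KO control, or 3 of KO senescent was left out (QL adjusted p 0.0524 to 0.108), and that for Ulbp1 without KO control replicate 2 (0.0637).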

How the results depend on the processing

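Of 940 recomputed member values, 898 kept their direction and their side of the threshold, 24 lost the call, 16 gained it and 2 reversed. Same-numbered libraries correlated at −0.159 to 0.141 in their deviations from group means. Some libraries correlated best with their own number and others did not. With 3 libraries per group this cannot settle whether replicate numbers pair the samples. With the replicate block, 10 members rose in WT and 9 in KO cells, and the interaction passed in 8 members instead of 7, Tap2 being added (−0.38, QL adjusted p 0.0277). With a log2 fold change over 1 in the call, 0 members fell in KO cells, 2 had a lower interaction, and 0 were called in both comparisons of KO with WT. Leaving out each library gave 10 to 10 members that rose in WT, 7 to 9 that rose and 1 to 1 that fell in KO cells, 6 to 9 with a lower interaction, 1 to 4 higher in KO control cells (1 without WT control replicate 1 or KO control replicate 2) and 7 to 9 lower in KO senescent cells.

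The 2 reversed values, both of members that did not pass, were those of Tap2 (0.024) and Psmb9 (0.124) between control cells without KO control replicate 1; leaving out single libraries gave −0.216 to 0.024 and −0.399 to 0.124. The higher Tapbp level in KO control cells missed the threshold under 7 of 19 alternatives (QL adjusted p up to 0.154). In KO cells, library totals alone moved Psmb7 to 0.092, Psmb6 to 0.002 and Psmb5 to 0.145, and DESeq2, its size factors and the 6 libraries compared alone moved Psmb5 to 0.009, 0.009 and 0.004. Leaving out single libraries moved Psmb5 to between −0.076 and 0.068 in KO cells and H2-DMb2 to between −0.129 and 0.21 in WT cells. The cause was not tested. With library totals alone the median of all genes was 0.19 in WT and 0.15 in KO cells, the share of higher calls went from 52% to 68.5% in WT, from 49.9% to 64.9% in KO and from 50.4% to 40.1% between senescent cells, and each senescence call of a member was kept. Of 612 context list counts under other tests, scalings or filters, 53 moved by over 1.5 times. The 112 recomputed ratio differences moved by less than 1 SD, and 4 of them changed sign. Psmb9 at 11 to 77 counts and interferon ligands at 0 to 9 counts in all limit what depth can show.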

Other observations

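Ligands that T and NK cells read beside class I changed in both directions. Icam1, the adhesion ligand of LFA-1, rose from 16.3 to 17.8 CPM in WT control to 98.4 to 106 CPM in WT senescent libraries (log2 2.58, SE 0.07, QL adjusted p 3.34e-17). The KO level rose from 9.92 to 11.3 CPM to 63.8 to 71.5 CPM (2.64, SE 0.07, QL adjusted p 4.4e-17), and its interaction of 0.06 (SE 0.10) did not pass (QL adjusted p 0.707). Cd274, the checkpoint ligand PD-L1, rose by 2.40 in WT (SE 0.29) and 1.81 in KO cells (SE 0.28), from under 1.2 CPM in each control library to 2.48 to 5.32 CPM in senescent libraries. Ulbp1, a ligand of the activating receptor NKG2D, fell by 2.21 in WT (SE 0.11) and 2.76 in KO cells (SE 0.11), from 15.8 to 22.9 CPM in control to 2.97 to 3.74 CPM in senescent libraries. Of the 8 such ligands tested, 4 rose and 4 fell in WT cells (29.2% and 27.0% of all genes). In KO cells 4 of them rose and 2 fell (28.5% and 28.6% of all genes).

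MHC class II presentation genes were low, at 46.3 to 96.1 CPM in sum over 11 genes. In WT cells 2 of 11 rose and none fell by the QL test (29.2% and 27.0% of all genes). In KO cells 2 rose and 5 fell (28.5% and 28.6% of all genes). The KO count of 5 rested on single libraries: it was 8 when replicate 1 of either KO group was left out, 1 without replicate 2 of KO control or 3 of KO senescent, and 2 without replicate 3 of KO control or 2 of KO senescent. It was 2 with the replicate block and 3 with the 6 KO libraries alone. The 2 that rose, H2-DMa (1.23 in WT, SE 0.20, and 0.66 in KO cells, SE 0.19) and H2-DMb1 (1.40 in WT, SE 0.17, and 0.64 in KO cells, SE 0.17), encode the peptide exchange factor of class II loading. In the KO, H2-DMb2 fell by 1.07 (SE 0.35, QL adjusted p 0.0183), which did not pass with the block (0.0893) or without KO control replicate 2 or 3 or replicate 2 or 3 of KO senescent (0.0657 to 0.0757), and changed by 0.07 in the WT. The class II sum was 55.2, 96.1 and 94 CPM in KO control and 76.6, 46.3 and 47.4 CPM in KO senescent replicates 1 to 3, so the groups overlapped. The B-cell genes Ms4a1 and Cd79a, are named after their values were seen, and for each of them, as for the class II sum, replicates 2 and 3 were the highest of the KO libraries in KO control and the lowest in KO senescent cells. Ms4a1 was at 5.56, 7.91 and 7.51 CPM in KO control and 4.55, 2.06 and 2.63 CPM in KO senescent replicates 1 to 3, and Cd79a was under 2 CPM in KO control replicate 1, at 4.82 and 4.55 CPM in KO control replicates 2 and 3, and at 4.09, 1.28 and 1.18 CPM in KO senescent replicates 1 to 3. The part of other cells in the class II values was not tested.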
